A study of Mus musculus with 556 samples.

Results

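The regions described here are 79 long stretches of the mouse genome that no lamina-associated domain (LAD) of the blastocyst covered. They were found by joining the LAD lists that the authors deposited for the inner cell mass (ICM) and the trophectoderm (TE), which gave 420 merged LADs, and by taking the gaps between neighbouring merged LADs. Of 401 gaps, 79 (19.7%) were at least 3 Mb long, and these long gaps made up 395 Mb, or 51.6% of the 764.9 Mb of all gaps. They held 3950 of the 24639 autosomal bins of 100 kb in the deposited table, of which 3946 had a value, out of 24022 bins with a value (16.4%). The remaining 322 shorter gaps held 3567 bins with a value and the merged LADs 16334. Long gaps ran from 3.0 to 11.9 Mb, with a median of 4.5 Mb, and occurred on all 19 autosomes, with 7 each on chromosomes 2, 5 and 11. No group of single cells described below is labelled as ICM or TE. The sources used here do not say which samples the LAD lists were called from. At the threshold, the gap on chromosome 16 from 89.7 to 92.7 Mb (3.0 Mb, inside) had a mean level of 0.694 ± 0.161 in zygotes with Dam-lamin B1 (SD, n = 19), and the gap on chromosome 15 from 36.2 to 39.1 Mb (2.9 Mb, outside) had 0.675 ± 0.162.

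The nuclear lamina is a meshwork of lamins under the inner nuclear membrane. LADs are megabase-sized, gene-poor and mostly silent stretches that touch it, and the gene-rich regions between them lie in the nuclear interior in most somatic cells. DamID fuses Dam, an adenine methyltransferase of bacteria, to lamin B1, so that GATC sites are methylated in DNA that comes near the lamina, while unfused Dam methylates whatever chromatin is accessible. The deposited value is the ratio of observed to expected reads (OE) in a bin of a single cell. The mean of OE over all bins was near 1 in most cells, so a lower OE in one set of regions goes with a higher OE elsewhere. It averaged 0.885 ± 0.0336 (SD, n = 56) in oocytes with Dam-lamin B1, and oocyte levels are therefore also given relative to LADs.

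The series studied lamina contacts from the oocyte to the 8-cell embryo and in embryonic stem (ES) cells, with 556 samples, of which 512 single cells had a column in the table and 498 could be placed in a group. Per the labels' protocols, oocytes and embryos from females of 5 to 8 weeks received mRNA for Dam with an auxin-inducible degron, or Dam-lamin B1 with the same degron, together with the auxin receptor TIR1. Auxin was then withheld for 6 to 8 h. Females were F1 (CBAxC57BL/6J) in the protocol, and oocytes and isolated pronuclei carry the strain label C57BL/6. Whole zygotes, 2-cell and 8-cell embryos are labelled as a cross of C57BL/6 females with CAST/EiJ males, and ES cells as a cross of 129/Sv females with CAST/EiJ males. Dam-lamin B1 mRNA was given at 5 ng/µl to oocytes and zygotes, 10 ng/µl at the 2-cell and 20 ng/µl at the 8-cell stage. Zygotes with Kdm4d, DMSO or aphidicolin and pronuclei without Kdm5b have no listed dose of Dam-lamin B1. Dam mRNA was given at 20 ng/µl to oocytes and zygotes and 40 ng/µl at the 2-cell and 8-cell stages. At the 2-cell and 8-cell stages, stage therefore cannot be told apart from the dose of Dam-lamin B1. Where a concentration is listed, oocytes and whole zygotes had the same doses but different strain labels, so stage and strain cannot be told apart between them. Stages are described without a test because blastomeres may share an embryo. Zygotes or pronuclei with Dam-lamin B1 also received mRNA for Kdm5b, a demethylase of histone H3 lysine 4, at 2 µg/µl, or for Kdm4d, a demethylase of histone H3 lysine 9, each as wild type or as a mutant. No dose of Kdm4d and no description of either mutation is given in the sources used here. A further pair of groups, labelled as zygotes, was kept in aphidicolin, an inhibitor of DNA synthesis, or in its solvent DMSO. The protocol describes aphidicolin for 2-cell embryos. Mothers, litters and days are not named in the labels, so p-values measure the spread between these cells, which may share a source. The depth, recovered as whole reads from the steps of the OE values, ran from 23561 to 1090941 reads per cell with a median of 71763.

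Long gaps were gene-rich. They held 6955 (33.7%) of 20665 protein-coding autosomal genes at 17.6 genes per Mb, against 13.4 per Mb in shorter gaps and 5.07 per Mb in merged LADs. Density ranged from 6.57 to 40.9 genes per Mb between long gaps, with a median of 15.5. Genes of 300 kb or more made up 0.676% of the genes in long gaps and 5.30% of those in LADs. Promoters in long gaps were rich in CG dinucleotides, with a median of 18 in the 300 bases around the start of a gene, against 6 in LADs. Shorter gaps had the same median of 18, so this did not set long gaps apart from other gaps. GATC, the site that Dam methylates, which reads the same on both strands, occurred in 45.7% of the 5619 promoters in long gaps and in 46.4% of all 16457 promoters. The letters of 4 promoters from gaps described below show this range, and they were picked after their GATC and CG counts were seen. All come from RefSeq with build GRCm38.p6, are printed on the strand of the gene, and have GATC in capitals. The promoter of Yy1, a zinc-finger factor linked to LAD formation, is at chr12:108793047-108793346 on the plus strand and has 1 GATC and 42 CG. That of Sdha, a subunit of succinate dehydrogenase, is at chr13:74350191-74350490 on the minus strand, with 1 GATC and 25 CG. That of Klf2, a pluripotency factor, is at chr8:72318812-72319111 on the plus strand and has 0 GATC and 32 CG. That of Khdc3, a maternal-effect gene of the oocyte, is at chr9:73102148-73102447 on the plus strand and has 1 GATC and 0 CG.
Yy1: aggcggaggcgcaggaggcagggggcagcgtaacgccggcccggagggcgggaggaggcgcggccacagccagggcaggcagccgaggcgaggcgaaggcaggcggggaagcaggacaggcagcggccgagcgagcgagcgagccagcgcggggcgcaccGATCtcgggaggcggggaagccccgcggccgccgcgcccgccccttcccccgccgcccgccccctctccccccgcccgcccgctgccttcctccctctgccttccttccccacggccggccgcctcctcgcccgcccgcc
Sdha: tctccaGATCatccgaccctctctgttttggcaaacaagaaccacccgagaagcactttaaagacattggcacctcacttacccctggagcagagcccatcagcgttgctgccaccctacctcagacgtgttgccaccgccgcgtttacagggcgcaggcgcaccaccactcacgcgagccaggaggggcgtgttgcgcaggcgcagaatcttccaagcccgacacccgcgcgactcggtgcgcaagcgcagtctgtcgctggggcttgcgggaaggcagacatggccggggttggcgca
Klf2: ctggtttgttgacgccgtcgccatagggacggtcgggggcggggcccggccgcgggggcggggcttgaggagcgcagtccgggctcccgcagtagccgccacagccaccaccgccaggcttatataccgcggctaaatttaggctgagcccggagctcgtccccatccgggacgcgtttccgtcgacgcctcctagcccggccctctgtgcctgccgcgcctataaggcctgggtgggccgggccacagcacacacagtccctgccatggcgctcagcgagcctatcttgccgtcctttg
Khdc3: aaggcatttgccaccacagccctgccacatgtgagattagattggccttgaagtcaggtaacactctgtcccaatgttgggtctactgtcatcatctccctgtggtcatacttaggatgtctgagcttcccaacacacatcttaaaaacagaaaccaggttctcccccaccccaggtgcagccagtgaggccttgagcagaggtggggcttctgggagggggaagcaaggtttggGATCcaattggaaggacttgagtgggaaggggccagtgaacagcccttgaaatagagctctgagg

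The gene families in long gaps were uneven. Of 39 Hox genes, which set positional identity in the body, 30 lay in long gaps and 0 in LADs. Of 21 matched genes for the lamina and its chromatin tethers, 12 did. They were Lmna (A-type lamins), Lbr (the lamin B receptor of the inner nuclear membrane), Sun2, Lemd2, Banf1, Prr14, the HP1 genes Cbx1, Cbx3 and Cbx5, the histone H3 lysine 9 methyltransferases Ehmt1 and Ehmt2, and Yy1. Of 79 ribosomal protein genes, 35 lay in long gaps. By contrast, 0 of 35 long neuronal adhesion and synapse genes lay in long gaps and 32 lay in LADs. Long gaps likewise held 0 of 57 clustered protocadherins, 0 of 49 Pramel and Oog genes, 0 of 26 prolactin family genes, 3 of 54 cytochrome P450 genes of families 2 and 3, 69 of 1100 olfactory receptor genes and 3 of 352 vomeronasal receptor genes. Of 14 genes of the genome activation at the 2-cell stage, 1 lay in a long gap and 12 in LADs. Maternal-effect genes of the oocyte (4 of 20, namely Gdf9, Padi6, Zp3 and Khdc3), imprinted genes (4 of 20), canonical histone genes (14 of 67) and defensins (16 of 70) were between these extremes. Shares near that of all genes were found for Zfp genes (126 of 388), neural transcription factors (11 of 34), keratins (44 of 109) and housekeeping genes (4 of 10). These shares are descriptions and stand beside the 33.7% of all genes in long gaps.

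With Dam-lamin B1, long gaps were below LADs in every ES cell, in all 19 zygotes that received no further mRNA or drug and in nearly all cells of 2-cell and 8-cell embryos, but in few oocytes. In 56 oocytes the mean OE over long gaps ran from 0.725 through a median of 0.962 to 1.23, with a mean of 0.977 ± 0.110 (SD). Long gaps were below LADs in only 7 of these 56 oocytes, and the mean log2 ratio of long gaps over LADs was 0.20 ± 0.21. In 19 zygotes the level ran from 0.556 through 0.800 to 0.948, with a mean of 0.766 ± 0.112, and all 19 were below their LADs. In 47 cells of 2-cell embryos it ran from 0.425 through 0.611 to 1.04 (mean 0.661 ± 0.178), and 46 of 47 were below their LADs. In 41 cells of 8-cell embryos it ran from 0.317 through 0.710 to 1.19 (mean 0.686 ± 0.164), and 40 of 41 were below their LADs. In 10 ES cells the mean was 0.651 ± 0.117, and all 10 were below their LADs. The cells of the zygote, 2-cell, 8-cell and ES groups overlapped widely. The oocyte mean lay above them, although individual oocytes overlapped the other stages.

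Dam alone gave the opposite pattern. The mean OE over long gaps was 1.25 ± 0.115 in 43 oocytes, 1.44 ± 0.0896 in 46 zygotes, 1.56 ± 0.223 in 45 cells of 2-cell embryos and 2.18 ± 0.108 in 4 cells of 8-cell embryos. Long gaps were above LADs in all 138 of these cells. The 4 cells at the 8-cell stage were all above the highest cell of the other 3 stages, which was 2.04 at the 2-cell stage. Oocytes with Dam-lamin B1 labelled 20ng or 50ng, whose labels give no concentration, had means of 1.11 ± 0.0620 (n = 17) and 1.10 ± 0.0580 (n = 23). These lay above the mean of the 56 oocytes given 5 ng/µl, but the mean OE over all bins was also higher, at 0.978 and 0.980 against 0.885. Relative to LADs the log2 ratios were 0.27 ± 0.10 and 0.24 ± 0.09, close to the 0.20 ± 0.21 of the 56 oocytes and below the 0.48 ± 0.21 of oocytes with Dam alone.

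**Figure D1:**
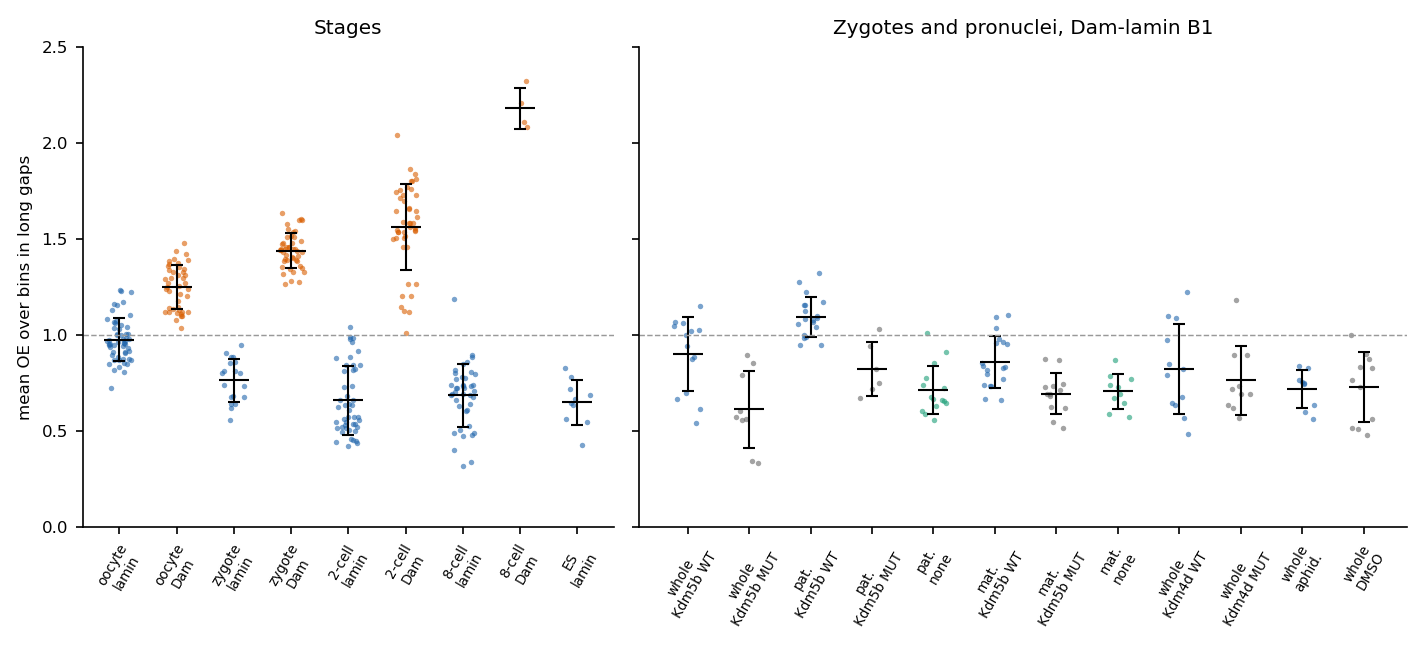
Mean OE over the 3946 bins of the long gaps in each single cell (1 point per cell), by group. The black line and bar give the mean and SD of a group. Groups with Dam alone sit above 1, zygote, 2-cell, 8-cell and ES groups with Dam-lamin B1 sit mostly below 1, and paternal pronuclei with wild-type Kdm5b (mean 1.10) sit with the oocytes.

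Long gaps were also compared with shorter gaps in the same cells, as the log2 of the ratio of their mean OE. With Dam-lamin B1 the ratio was 0.03 ± 0.08 in oocytes and -0.02 ± 0.08 in the 19 zygotes. Some other groups of zygotes had lower ratios, with -0.13 ± 0.11 in DMSO (10 of 11 below 0), -0.12 ± 0.07 in aphidicolin (9 of 9) and -0.21 ± 0.15 with mutant Kdm5b (9 of 9). Zygotes with wild-type and mutant Kdm4d had -0.08 ± 0.12 (10 of 12) and -0.08 ± 0.11 (9 of 10). Maternal pronuclei without Kdm5b had -0.11 ± 0.12 (7 of 10). Zygotes with wild-type Kdm5b were near 0, at -0.02 ± 0.07 (7 of 14), and paternal pronuclei with wild-type Kdm5b had 0.04 ± 0.05 (4 of 19). At the 2-cell stage it was -0.24 ± 0.16, and 43 of 47 cells had a lower level in long than in shorter gaps. It was -0.11 ± 0.12 at the 8-cell stage (33 of 41 cells lower) and -0.09 ± 0.11 in ES cells (8 of 10 lower). With Dam alone the ratio was positive at every stage, at 0.10 ± 0.06 in oocytes, 0.18 ± 0.05 in zygotes, 0.25 ± 0.10 at the 2-cell and 0.42 ± 0.06 at the 8-cell stage.

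Within long gaps, the level fell with the distance from the nearest LAD at the 2-cell and 8-cell stages. It was also lower in the core of the gaps in several groups of zygotes and pronuclei, and in 9 of 10 ES cells. At the 2-cell stage with Dam-lamin B1, bins next to a LAD had a mean OE of 0.840 ± 0.0207 (SE over 47 cells), bins at 0.5 Mb 0.683 ± 0.0242 and bins at 3.0 Mb or more 0.552 ± 0.0343. At the 8-cell stage the same distances gave 0.924 ± 0.0261, 0.723 ± 0.0257 and 0.621 ± 0.0320 (SE over 41 cells). The 19 zygotes gave 0.766 ± 0.0289, 0.777 ± 0.0328 and 0.794 ± 0.0329 (SE over 19 cells), a flat profile. ES cells gave 0.719 ± 0.0351 next to a LAD and 0.626 ± 0.0501 at 3.0 Mb or more (SE over 10 cells). Only the longer gaps reach the larger distances, with 158 bins next to a LAD and 39 bins at 2.9 Mb. The ends of these profiles therefore cover different sets of gaps, and distance and gap cannot be told apart there. The core of the gaps (1578 bins at least 1.5 Mb from a LAD, in 74 gaps) was then set against their edges (474 bins under 0.3 Mb from a LAD), with distances chosen after the data were seen. The log2 of core over edge with Dam-lamin B1 was -0.46 ± 0.26 at the 2-cell stage, below 0 in 46 of 47 cells, and -0.38 ± 0.21 at the 8-cell stage, below 0 in 39 of 41. It was -0.03 ± 0.11 in the 19 zygotes (14 below 0), -0.04 ± 0.10 in oocytes (40 of 56 below 0) and -0.16 ± 0.18 in ES cells (9 of 10 below 0). Other groups at the zygote stage lay below 0, with -0.23 ± 0.17 in DMSO (11 of 11 zygotes), -0.18 ± 0.14 in aphidicolin (9 of 9) and -0.29 ± 0.13 in maternal pronuclei without Kdm5b (10 of 10). Maternal pronuclei with wild-type Kdm5b had -0.18 ± 0.11 (19 of 19 below 0), and paternal ones had 0.03 ± 0.06. A flat profile was thus not common to all zygote groups, and whether groups differed was not tested. With Dam alone the sign was reversed, with 0.18 ± 0.09 at the 2-cell and 0.33 ± 0.11 at the 8-cell stage. With every cell thinned to 23561 reads the 2-cell and 8-cell values with Dam-lamin B1 were again -0.46 and -0.38. The LADs that set these distances are those of the blastocyst, and where LAD borders lay at earlier stages was not tested.

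**Figure D2:**
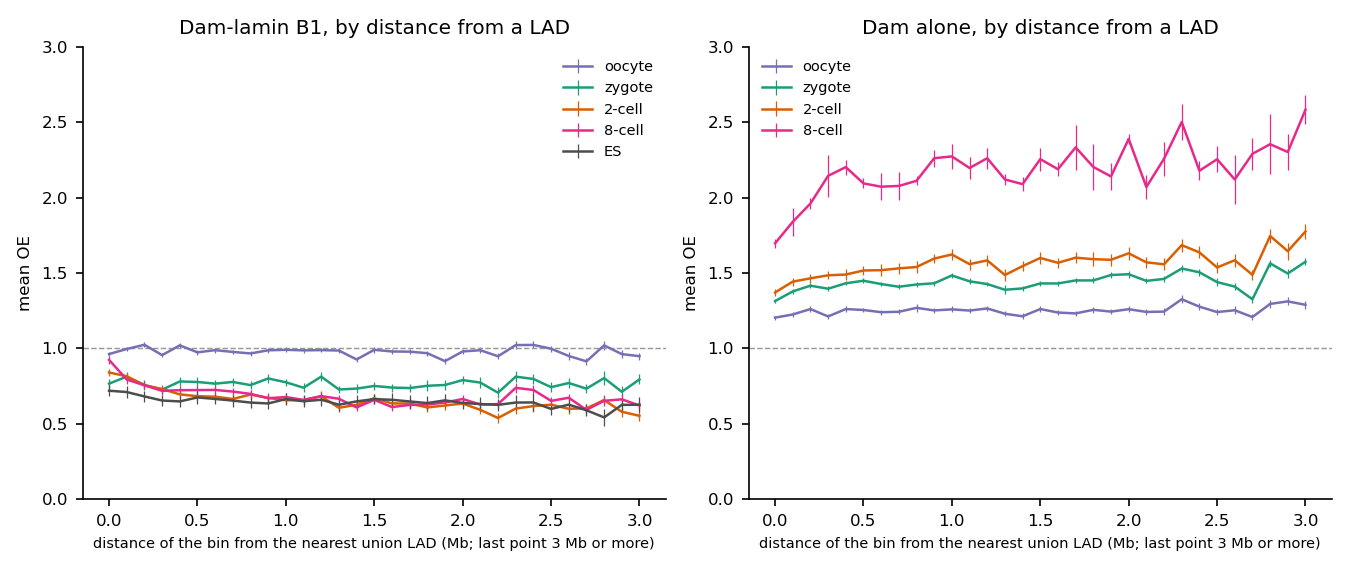
Mean OE of bins in long gaps against the distance in Mb from the nearest merged LAD, by stage, for Dam-lamin B1 and Dam alone. Bars are the SE over cells, and the last point pools bins at 3.0 Mb or more. Only the longer gaps reach the larger distances. With Dam-lamin B1 the 2-cell curve falls from 0.840 to 0.552 while the curve of the 19 zygotes stays between 0.766 and 0.794 at its ends.

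Zygotes allow a test of each gap, since each is a separate embryo. On the log2 scale of OE with a pseudocount of 0.1, all 79 long gaps were lower with Dam-lamin B1 (n = 19) than with Dam alone (n = 46) at an adjusted p of 0.05 or less (limma, Benjamini-Hochberg adjusted over 699 segments). Of all 699 segments, LADs and gaps together, 87% were called and 64.2% were lower. The log2 difference over the long gaps ran from -1.10 to -0.29 with a median of -0.85, against a median of -0.57 over all segments. The lowest was a gap on chromosome 2 (162.9 to 169.1 Mb), which holds Sall4, a pluripotency factor, and Hnf4a, an endodermal nuclear receptor. Its OE with Dam-lamin B1 ran from 0.474 through 0.694 to 0.970, and with Dam from 1.04 through 1.60 to 2.93, so no zygote of one group overlapped the other. The log2 difference was -1.10 (SE 0.0758, adjusted p = 4.381e-21). The log2 difference was -1.08 for a gap on chromosome 8 (119.2 to 125.0 Mb) with Rpl13, a ribosomal protein gene. It was -1.04 for the gap on chromosome 12 (104.5 to 109.1 Mb) that holds Yy1. In all, 5 long gaps had no overlap between the zygotes of both constructs. The share of all segments without overlap is not given, so this count does not set long gaps apart. The difference was smallest in the gap on chromosome 9 from 70.1 to 73.2 Mb, which holds Khdc3 and Tcf12, a basic helix-loop-helix factor. There the OE with Dam-lamin B1 ran from 0.527 through 0.976 to 1.33 and with Dam from 0.795 through 1.15 to 1.80. The groups overlapped widely, and the log2 difference was -0.29 (SE 0.0767, adjusted p = 0.000532). The dose of mRNA also differed between the constructs (5 against 20 ng/µl), and construct and dose cannot be told apart.

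The levels of single long gaps in zygotes with Dam-lamin B1 ran from 0.465 to 0.985. The highest was the gap on chromosome 9 from 106.1 to 109.1 Mb (0.985 ± 0.141, SD, n = 19). The lowest was a gene-poor gap on chromosome 12 from 15.6 to 22.6 Mb, at 0.465 ± 0.115, and it was also low with Dam alone (0.841 ± 0.190, n = 46). The next were the Yy1 gap (0.592 ± 0.116) and the gap on chromosome 13 from 70.8 to 74.6 Mb (0.597 ± 0.178), which holds Sdha and the Iroquois homeodomain genes Irx2 and Irx4. The lowest gap lay more than 1 SD below the next, and those next lowest differed from each other by less than the spread between zygotes. The longest gap, 11.9 Mb on chromosome 2 from 24.3 to 36.2 Mb with 256 genes, among them Ehmt1 and the ribosomal protein genes Rpl7a and Rpl12, had 0.843 ± 0.160 with Dam-lamin B1, against 1.75 ± 0.312 with Dam. The next longest, 10.6 Mb on chromosome 4 from 131.7 to 142.3 Mb, holds Lin28a, an RNA-binding pluripotency factor, and Padi6, a maternal-effect gene. It had 0.774 ± 0.166 with Dam-lamin B1 and 1.56 ± 0.204 with Dam. Over all long gaps the group means were 0.766 for Dam-lamin B1 and 1.44 for Dam, with single gaps up to 1.85 for Dam, so the longest gap was among the higher ones with Dam.

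At the scale of 100 kb, 3114 of 3943 tested bins in long gaps were lower and 9 were higher with Dam-lamin B1 than with Dam, where 58.4% of all 23969 tested bins were called and 19.6% were higher. With equal reads 1705 were lower and 6 higher. A pair of the higher bins lay in the same gap on chromosome 9. The bin that starts at 72.3 Mb overlaps Zfp280d, a zinc-finger gene, and had a mean OE of 2.35 ± 1.32 with Dam-lamin B1 and 0.644 ± 0.596 with Dam (log2 difference 1.99, SE 0.397, adjusted p = 1.114e-05). The bin that starts at 72.0 Mb overlaps Tcf12, with 1.79 ± 1.66 against 0.508 ± 0.590 (log2 difference 1.38, adjusted p = 0.004605). Among the bins that differed most in the other direction was one on chromosome 8 at 13.7 Mb, over Cdc16, a subunit of the anaphase-promoting complex, and Upf3a (0.235 ± 0.418 against 1.31 ± 0.919). Per bin the cells overlapped in each of these examples, and with equal reads the bin over Tcf12 no longer passed.

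The same direction was seen gap by gap at the other stages, as group means with no test. With Dam-lamin B1, 78 of 79 long gaps were below the mean with Dam in oocytes, 78 of 79 at the 2-cell and 79 of 79 at the 8-cell stage. The median log2 ratio was -0.33 in oocytes, -1.25 at the 2-cell and -1.64 at the 8-cell stage, beside -0.92 in zygotes. In oocytes the mean OE over all bins was also lower with Dam-lamin B1 than with Dam (0.885 against 0.994). So was the mean over LADs (0.844 against 0.891). The oocyte counts and ratio given here are not relative to LADs, so part of the difference was shared by all bins. With Dam-lamin B1, 40 of 79 long gaps had a mean OE of 1 or more in oocytes, 0 in zygotes, 2 in 2-cell and 1 in 8-cell embryos, and 2 in ES cells. The highest gap in oocytes was on chromosome 3 (94.4 to 98.0 Mb), where a cluster of canonical histone genes lies. Its OE ran from 0.583 through 1.28 to 2.99 in 56 oocytes (mean 1.34 ± 0.430), and it was the 1 gap of the oocyte that was not below Dam (1.34 ± 0.187, n = 43). Its mean was 0.812 ± 0.204 in zygotes, 0.751 ± 0.318 at the 2-cell and 0.651 ± 0.110 in ES cells. The gap at the threshold on chromosome 16, which holds the neural transcription factors Olig1 and Olig2, had 1.18 ± 0.415 in oocytes and 0.498 ± 0.251 at the 2-cell stage. In both gaps the cells of different stages overlapped.

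A gap on chromosome 17 (4.1 to 9.0 Mb) stood apart at the 2-cell stage. In 47 cells of 2-cell embryos with Dam-lamin B1 its OE ran from 0.235 through 1.49 to 2.88, with a mean of 1.55 ± 0.481, and 45 of 47 cells were at 1 or more. With Dam alone it ran from 0.442 through 1.17 to 2.28 (mean 1.22 ± 0.279, n = 45). It was the 1 long gap of 79 in which the 2-cell mean with Dam-lamin B1 was above that with Dam (log2 ratio 0.35). Its mean with Dam-lamin B1 was 0.988 ± 0.360 in oocytes, 0.800 ± 0.162 in zygotes, 0.802 ± 0.296 at the 8-cell stage and 0.630 ± 0.140 in ES cells, so the mean over the whole gap was at 1 or more at the 2-cell stage and below 1 at the other stages. The signal was concentrated in its first 1.8 Mb, from 4.1 to 5.9 Mb, which overlaps Arid1b, a subunit of the BAF chromatin remodelling complex, Zdhhc14, a palmitoyltransferase gene, and Snx9, a sorting nexin of endocytosis. The borders of this stretch were drawn from the 2-cell values of both constructs, so its 2-cell levels are a description and no test. In it 46 of 47 cells of 2-cell embryos were at 1 or more, and OE ran from 0.270 through 2.23 to 4.93 (mean 2.41 ± 0.834). The mean was 0.996 ± 0.353 in 45 cells with Dam alone. With Dam-lamin B1 it was 0.845 ± 0.204 in 19 zygotes and 0.748 ± 0.430 in 41 cells of 8-cell embryos. Part of the stretch, from 4.2 to 4.8 Mb and chosen from the 8-cell values, was also high at the 8-cell stage, with a mean OE of 1.28 against 0.250 with Dam. Isolated pronuclei had 0.551 ± 0.137 (paternal, n = 15) and 0.907 ± 0.778 (maternal, n = 10), and 3 maternal pronuclei were at 1 or more, with the highest at 2.88. The last 0.5 Mb of the gap, over the phosphodiesterase gene Pde10a and likewise chosen from the 2-cell values, was also high at the 2-cell stage (mean OE 2.53 against 1.10 with Dam).

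**Figure D3:**
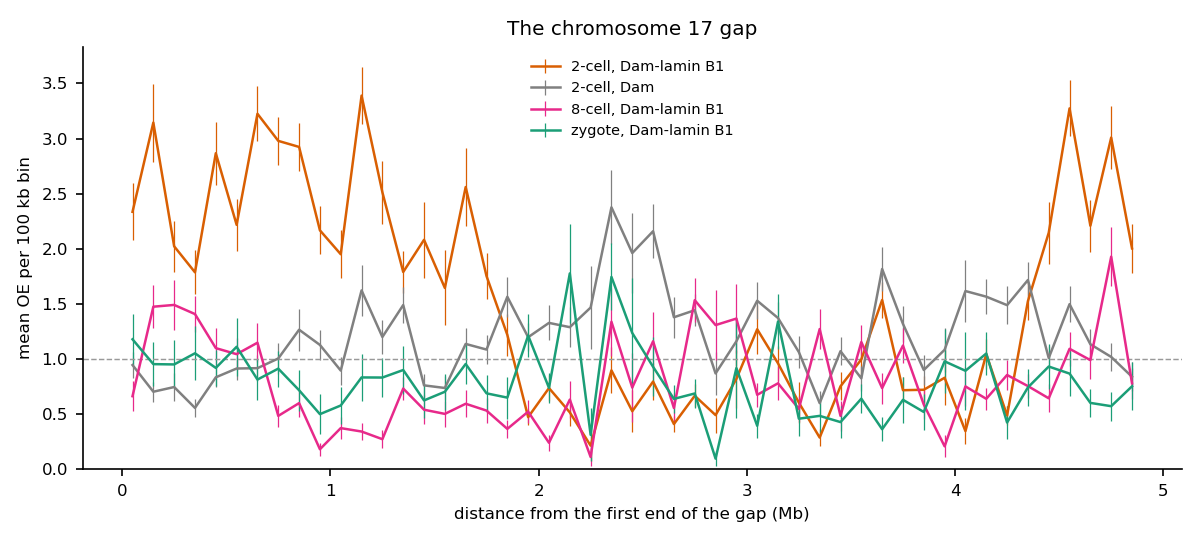
Mean OE per 100 kb bin along the long gap of 4.9 Mb on chromosome 17, against the distance in Mb from its first end, for 2-cell embryos (both constructs), 8-cell embryos and zygotes (Dam-lamin B1). Bars are the SE over cells. The 2-cell Dam-lamin B1 curve is highest over the first 1.8 Mb (mean 2.41 against 0.996 with Dam) and rises again over the last 0.5 Mb. Both stretches were chosen from these 2-cell values.

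To find other such places, runs of at least 5 neighbouring bins in long gaps were listed in which the group mean with Dam-lamin B1 was 1 or more and above that with Dam, a rule set after the data were seen. The 2-cell stage had 11 runs with 8.9 Mb in 9 gaps, oocytes 7 runs with 4.4 Mb, the 8-cell stage 5 runs with 3.0 Mb and zygotes 0. These are group means with no test, and the number of cells and their depth differed between stages. Beside the runs on chromosome 17, the longest at the 2-cell stage were on chromosome 6 from 53.4 to 54.6 Mb, over Creb5, a transcription factor, and Chn2, a regulator of Rac, and on chromosome 12 from 15.6 to 16.6 Mb, over the pseudokinase gene Trib2 and the phosphatidate phosphatase gene Lpin1. The run on chromosome 6 had a mean OE of 1.52 against 0.915 with Dam, and the run on chromosome 12 had 2.16 against 0.953. Cells differed widely in the run on chromosome 6, where 2-cell values ran from 0.194 through 1.18 to 4.38 and 32 of 47 cells were at 1 or more. The longest run at the 8-cell stage was on chromosome 11 from 71.1 to 72.0 Mb, over the inflammasome sensor genes Nlrp1a and Nlrp1b. It had 1.30 ± 0.636 in 41 cells with Dam-lamin B1, and 0.515 ± 0.323 in 4 cells with Dam. The next longest was the run from 4.2 to 4.8 Mb in the chromosome 17 gap. Oocyte runs overlapped 12 to 28 genes each, except a run on chromosome 3 from 104.2 to 104.7 Mb with 3 genes. The mean OE with Dam in the oocyte runs lay between 1.25 and 1.60, beside 1.25 over all long gaps in oocytes. A run on chromosome 3 from 95.9 to 96.6 Mb, over 10 histone genes of the H2a, H2b, H3 and H4 classes, had 1.64 against 1.47 with Dam. One on chromosome 15 from 101.4 to 102.1 Mb, over a cluster of keratin genes that includes Krt8 and Krt18, had 1.83 against 1.60.

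Gaps with more genes had a higher OE with Dam alone. Across the 79 long gaps, Pearson's r of the mean OE with genes per Mb was 0.69 in zygotes, 0.70 in oocytes, 0.78 at the 8-cell and 0.86 at the 2-cell stage with Dam (Spearman's rho 0.72, 0.69, 0.84 and 0.89). With Dam-lamin B1 it was 0.53 in oocytes, 0.49 in zygotes, 0.29 at the 8-cell stage, -0.17 at the 2-cell stage and -0.12 in ES cells. These are correlations across gaps, which share cells, depth and base composition, and they are given with no p. The gap with the highest level under Dam at the 8-cell stage shows this. It is on chromosome 8 (69.6 to 72.6 Mb), has 40.3 genes per Mb and holds Klf2. It had 3.69 ± 0.666 with Dam (n = 4) and 0.835 ± 0.328 with Dam-lamin B1 (n = 41). A gene-poor gap on chromosome 4 (62.3 to 65.8 Mb, 8.57 genes per Mb) with the metalloproteinase gene Pappa had 0.617 ± 0.218 and 0.528 ± 0.261, so both constructs were low there. In ES cells this gap was the highest, at 1.16 ± 0.414 (n = 10). With Dam, r with gap length was smaller than with gene density, between 0.0733 and 0.234. With Dam-lamin B1 this was not so in all groups. In DMSO zygotes r was -0.264 with length and -0.0184 with gene density, and in maternal pronuclei with mutant Kdm5b it was -0.305 and 0.0122.

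**Figure D4:**
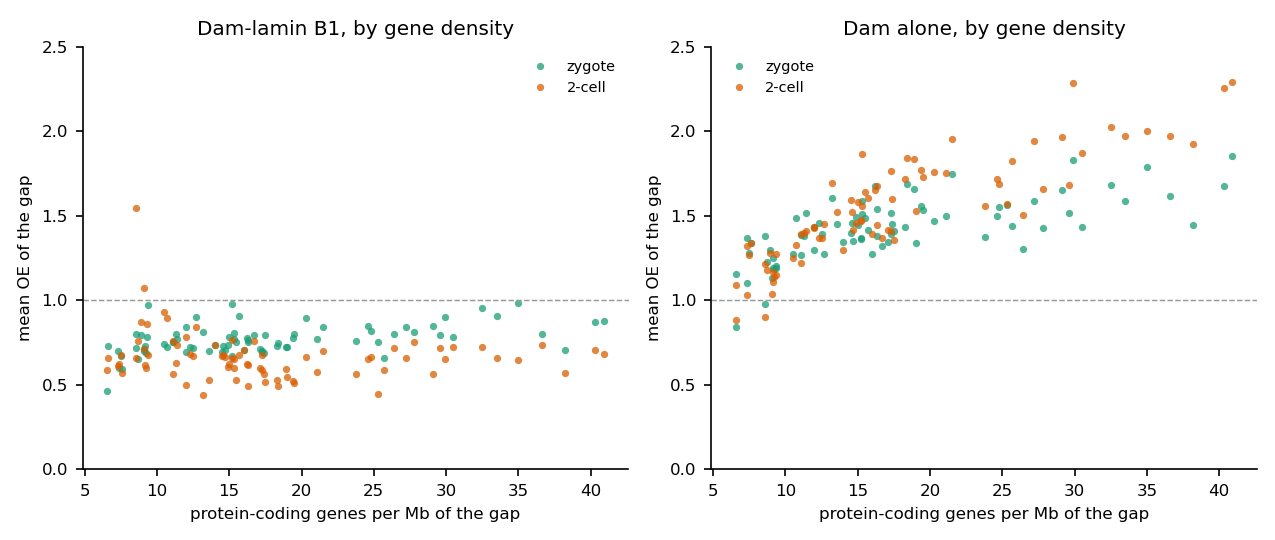
Mean OE of each of the 79 long gaps (1 point per gap, mean over cells) against protein-coding genes per Mb. The panels show zygotes and cells of 2-cell embryos. With Dam alone the level rises with gene density (r of 0.69 and 0.86), while with Dam-lamin B1 r is 0.49 in zygotes and -0.17 at the 2-cell stage.

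Kdm5b removes methyl groups from lysine 4 of histone H3, a mark of active promoters, and its comparison asks whether this mark bears on lamina contacts in the zygote. In paternal pronuclei, long gaps were higher with wild-type than with mutant Kdm5b. The mean OE over long gaps ran from 0.948 through 1.08 to 1.32 in 19 wild-type pronuclei (mean 1.10 ± 0.104), of which 15 were above 1. It ran from 0.674 through 0.787 to 1.03 in 6 mutant pronuclei (0.825 ± 0.139). Of 79 long gaps, 67 were higher and 0 lower at an adjusted p of 0.05 or less (limma, Benjamini-Hochberg adjusted over 699 segments), where 48.4% of all segments were called and 36.6% were higher. The median log2 difference over the long gaps was 0.40, against 0.26 over all segments and 0.38 over the 261 shorter gaps, of which 135 were higher. Long gaps average more bins than shorter ones, so the shares called are not directly comparable. In 77 of 79 long gaps the mean with wild-type Kdm5b was 1 or more, against 2 of 79 with the mutant. Shorter gaps likewise had a mean OE above 1 with wild-type Kdm5b (1.06 ± 0.0793) and below 1 with the mutant (0.838 ± 0.114). Crossing 1 therefore did not set long gaps apart from shorter ones.

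A gap on chromosome 15 (82.8 to 86.5 Mb) differed most. It holds Prr5, a subunit of the mTORC2 complex. Its OE ran from 0.851 through 1.14 to 1.36 with wild-type Kdm5b and from 0.661 through 0.696 to 0.723 with the mutant. It was the 1 long gap in which no pronucleus of one group overlapped the other (log2 difference 0.61, SE 0.0980, adjusted p = 0.0002163). How many other segments had no overlap is not given. A gap on chromosome 18 (33.7 to 36.8 Mb), with the catenin gene Ctnna1, had 1.11 ± 0.169 against 0.712 ± 0.200 (log2 difference 0.60, adjusted p = 0.00118). A gap on chromosome 9 (106.1 to 109.1 Mb), with the ribosomal protein gene Rpl29 and 35 genes per Mb, had 1.12 ± 0.155 against 0.726 ± 0.140 (log2 difference 0.57, adjusted p = 0.000657). In both the ranges of the groups overlapped. The gaps that held the least difference were the Pappa gap on chromosome 4 (1.10 ± 0.224 against 1.16 ± 0.0916, log2 difference -0.11) and the gaps on chromosome 9 from 70.1 to 73.2 Mb (log2 difference 0.08) and on chromosome 3 from 102.7 to 106.0 Mb (log2 difference 0.08). None of these 3 passed the test. In the gap on chromosome 3, mutant replicate 6 lay far from the other pronuclei of its group, at 1.71. Of single bins in long gaps, 2 were higher and 0 lower, where 0.0501% of all bins were called, a share near that in long gaps. With equal reads, or with a pseudocount of 1, 0 were called. They were on chromosome 19 at 44.5 Mb, over Wnt8b and Hif1an, an asparagine hydroxylase that acts on hypoxia-inducible factors (1.67 ± 1.05 against 0.274 ± 0.392), and on chromosome 2 at 28.7 Mb, over the adenylate kinase gene Ak8 (1.74 ± 1.16 against 0.449 ± 0.517). Leaving out any 1 pronucleus left between 54 and 69 long gaps called.

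In maternal pronuclei the same comparison called 0 of 79 long gaps (limma), where 0.286% of all segments were called. At an unadjusted p under 0.05, 34 of 79 passed. The mean OE over long gaps was 0.862 ± 0.135 with wild-type (n = 19) and 0.696 ± 0.106 with mutant Kdm5b (n = 13), and 75 of 79 log2 differences were above 0, with a median of 0.31. The smallest adjusted p was 0.0508, and it was shared by gaps that include the one on chromosome 15 (0.739 ± 0.202 against 0.481 ± 0.197). Whether the effect of Kdm5b differed between pronuclei was tested as an interaction, and 0 of 79 long gaps and 0% of all segments passed (limma, smallest adjusted p over the long gaps 0.688, 4 long gaps at an unadjusted p under 0.05). A difference between the pronuclei was therefore not shown by the test. Of single bins in long gaps, 0 were called in maternal pronuclei and 0 in the interaction, as were 0% of all bins (limma), and 495 and 143 passed an unadjusted p under 0.05. The shares of all segments and bins at an unadjusted p are not given, so these counts do not set long gaps apart. Without Kdm5b mRNA the mean was 0.714 ± 0.127 in 15 paternal and 0.708 ± 0.0923 in 10 maternal pronuclei.

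In whole zygotes the mean OE over long gaps ran from 0.542 through 0.971 to 1.15 with wild-type Kdm5b (0.901 ± 0.194, n = 14) and from 0.334 through 0.574 to 0.895 with the mutant (0.613 ± 0.202, n = 9). The ranges overlapped. The log2 difference was above 0 in 77 of 79 long gaps, with a median of 0.55. Of the long gaps, 30 were higher and 0 lower at an adjusted p of 0.05 or less, where 15.6% of all segments were called (limma, smallest adjusted p 0.0391). All of these p-values lay close to the threshold, and the number called depended on single zygotes. Leaving out 1 zygote at a time gave 0 calls in 15 of 23 fits, namely without mutant replicates 1 to 5 or wild-type replicates 1, 3 or 6 to 13. It gave 11 calls without mutant replicate 8, 48 without wild-type replicate 5, 50 and 51 without mutant replicates 9 and 6, and 54 without wild-type replicate 14. With equal reads 0 were called, and the groups differed in depth (mean 220427 against 120191 reads). The median log2 difference stayed between 0.47 and 0.63 in these fits. The largest differences were in the Klf2 gap on chromosome 8 (0.991 ± 0.302 against 0.558 ± 0.333, log2 difference 0.89, SE 0.280, adjusted p = 0.0408) and in a gap on chromosome 5 (110.0 to 116.2 Mb) with the ribosomal protein gene Rplp0 (0.876 ± 0.281 against 0.465 ± 0.219, log2 difference 0.83, adjusted p = 0.0391). Of single bins in long gaps 0 were called by limma, as were 0% of all bins, and 1279 passed an unadjusted p under 0.05. The share of all bins that did so is not given, so this count does not set long gaps apart.

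**Figure D5:**
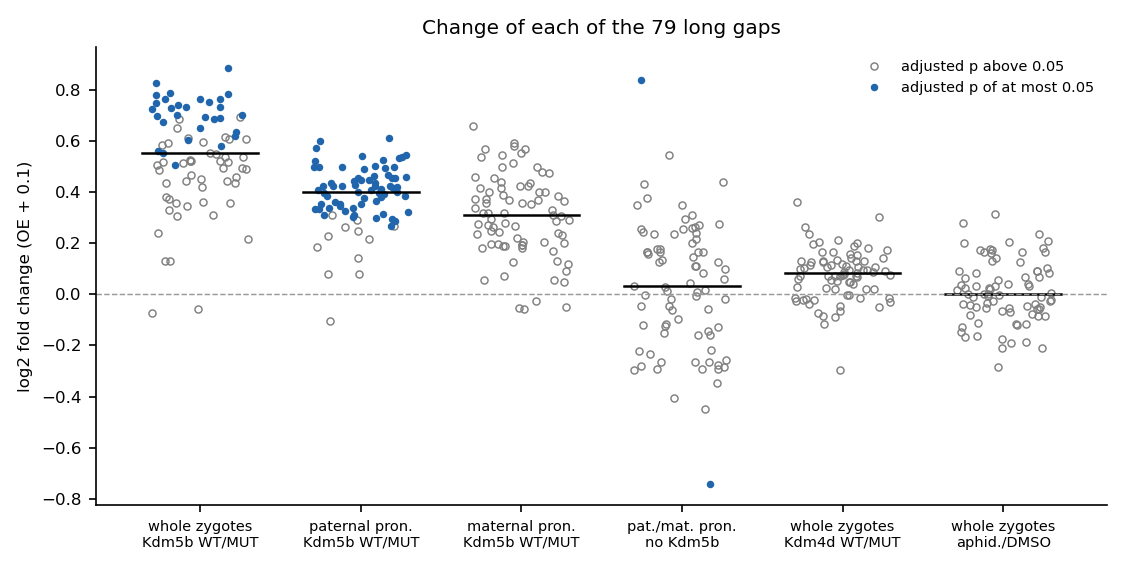
The log2 difference of each of the 79 long gaps (1 point per gap) in 6 comparisons of zygotes or pronuclei with Dam-lamin B1, on the scale of log2 OE with a pseudocount of 0.1. Filled points passed an adjusted p of 0.05 and lines give the median. With wild-type against mutant Kdm5b, 30 gaps are called higher in whole zygotes, 67 in paternal and 0 in maternal pronuclei.

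Paternal and maternal pronuclei without Kdm5b differed in few long gaps. Whether any of them came from the same zygote is not stated in the labels. Of 79, 1 was higher and 1 lower in paternal pronuclei (limma), where 8.44% of all segments were called and 6.44% were higher. The Pappa gap on chromosome 4 was higher in paternal pronuclei, where OE ran from 0.450 through 1.04 to 1.47 (n = 15), against 0.187 through 0.451 to 0.875 in maternal ones (n = 10). The log2 difference was 0.84 (SE 0.212, adjusted p = 0.0136). The gap on chromosome 3 (102.7 to 106.0 Mb), with the potassium channel gene Kcnd3 and the ubiquitin ligase gene Trim33, was lower, with 0.493 through 0.702 to 1.68 in paternal and 0.609 through 1.48 to 1.95 in maternal pronuclei (log2 difference -0.74, adjusted p = 0.0289). In both gaps the groups overlapped. With equal reads the Pappa gap passed again (limma, adjusted p = 0.0193) and the gap on chromosome 3 did not (adjusted p = 0.0734). Of single bins, 23 in long gaps were higher and 4 lower in paternal pronuclei, where 1.97% of all bins were called. The largest differences were on chromosome 2 at 93.1 Mb, over Trp53i11 (1.83 ± 1.04 against 0.153 ± 0.265), and on chromosome 6 at 31.1 Mb, where no protein-coding gene lies (1.57 ± 1.28 against 0.165 ± 0.234). In the other direction they were on chromosome 3 at 103.3 Mb, over Trim33 (0.504 ± 0.655 against 3.04 ± 2.37), and on chromosome 2 at 34.3 Mb, over the homeodomain gene Pbx3 (0.270 ± 0.270 against 2.22 ± 1.76). With equal reads 0 of these bins were called, and paternal pronuclei were the deeper group (mean 158066 against 93770 reads).

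Kdm4d and aphidicolin gave 0 called long gaps of 79 and 0% of all segments (limma), and 0 long gaps at an unadjusted p under 0.05. The mean OE over long gaps was 0.822 ± 0.234 with wild-type (n = 12) and 0.764 ± 0.181 with mutant Kdm4d (n = 10), and the median log2 difference was 0.08 (range -0.30 to 0.36). It was 0.721 ± 0.0978 with aphidicolin (n = 9) and 0.729 ± 0.181 with DMSO (n = 11), with a median log2 difference of 0.00 (range -0.29 to 0.32). Of single bins in long gaps, 0 were called in either comparison, where 0.00418% and 0.00836% of all bins were, and 82 and 122 passed an unadjusted p under 0.05. Some bins pass such a p by chance, and the share of all bins that did so is not given. These groups overlapped over most of their ranges, and with 9 to 12 zygotes in a group a difference smaller than this spread could not be resolved.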

How the data were processed

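The authors deposited OE, a ratio of observed to expected reads, for each single cell and each 100 kb bin of the autosomes. The submitters' processing notes name build mm10, cutadapt and BWA 0.7.12 without role or settings. The sources used here do not say how expected reads were computed or LADs called. Bins without a value (617 of 24639) were left out. A bin belonged to a long gap if it lay wholly in it. Within a bin the OE values were whole multiples of 1 read (100% of non-zero values, tolerance 0.02 reads, 23857 of 24022 bins), which gave the depth. It would be a multiple of this were the smallest step worth several reads. PCR reads are not independent molecules. No pair of cells had identical values, and the highest r over bins between cells was 0.763.

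Segments were merged LADs and gaps with at least 5 measured bins. Their mean OE, and single bins with a mean OE of at least 0.1, were compared with limma 3.58.1 (trended empirical Bayes, R 4.3.3) on log2(OE + 0.1), which understates changes of low values. Only the cells of the groups compared entered, p-values were Benjamini-Hochberg adjusted over all segments or bins tested, and the threshold was 0.05. All tests were 2-sided. The fits were tested on simulated data. Alternatives were a pseudocount of 1, no filter, equal reads, the replicate number as a block, gaps of at least 5 Mb and the median over bins. Leaving out single cells, the core and edge distances, the runs and the tighter name patterns of the gene families were added after the data were seen. The members and gene lists were chosen with earlier results of these data known.

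Gaps named were the 5 longest, the 3 highest and 3 lowest in zygotes, those next to 3 Mb, the 3 with the widest range over stages, and up to 3 called gaps in each direction of a test. Named bins were up to 2 called in each direction. Genes named were members of the lists in those gaps or, without one, genes near the middle, and runs and named bins were given genes that overlap them. A gap, a bin and a gene list under these rules are not reported here. The gaps highest under Dam at the 8-cell stage and highest in ES cells were among the named ones, and the genes Prr5, Ctnna1, Kcnd3, Pappa and Tcf12 and those of the runs were picked for their known roles. Genes and promoters came from RefSeq with assembly GRCm38.p6, the same build. The 14 cells with contradictory labels and the pooled samples were left out.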

Additional observations from a re-analysis of the deposited data

Results flagged for a closer look

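With Dam-lamin B1 and mutant Kdm4d, zygote replicate 7 had a mean OE over long gaps of 1.18, far from the other 9 zygotes of its group, which lay between 0.570 and 0.895 (mean 0.718 ± 0.113, SD). The same zygote was far above its group in 4 of the long gaps named in the text, namely those on chromosome 4 from 131.7 to 142.3 Mb (1.27) and from 147.9 to 156.3 Mb (1.21), on chromosome 2 from 162.9 to 169.1 Mb (1.33) and on chromosome 8 from 119.2 to 125.0 Mb (1.13). In ES cells, replicate 8 had a log2 ratio of long over shorter gaps of -0.35, while the other 9 cells lay between -0.15 and 0.03. Among zygotes kept in aphidicolin, replicate 9 had a log2 ratio of long over shorter gaps of -0.28, while the other 8 lay between -0.16 and -0.06. Of 21 group values tested in this way 3 had such a cell, and of 154 pairs of a named gap and a group 13 did, where chance gives about 1 in 20.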

How the results depend on the processing

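Of the counts and group values, 251 values under other settings stayed close to those reported and 51 moved, and of the named gaps and bins 56 kept their call and 28 lost it, with 0 changes of sign. In whole zygotes with Kdm5b, 0 long gaps were called with equal reads, and leaving out 1 zygote gave from 0 to 54. In paternal pronuclei leaving out 1 cell gave from 54 to 69. Maternal pronuclei gave 3 called long gaps with equal reads and 13 when segments with fewer than 5 measured bins were kept. The parental comparison gave 1 with equal reads. For single bins in long gaps, equal reads gave 1711 calls for Dam-lamin B1 against Dam, 0 for Kdm5b in paternal pronuclei and 0 for the parental comparison. A pseudocount of 1 gave 0 bins for Kdm5b in paternal pronuclei, and no filter on low values gave 1 bin in whole zygotes with Kdm5b. The cause was not tested, except that equal reads leave fewer reads in the deeper cells. Cells that share a replicate number did not deviate together. Between 1 and 3 pairs per comparison had a correlation over 0.1, and at most 3 cells were closest to their own number. With the number as a block, and only the cells that share numbers, 0 long gaps were called for Kdm5b in whole zygotes, 0 in paternal pronuclei (6 pairs) and 0 in the parental comparison. The block gave 0 single bins for Kdm5b in paternal pronuclei and 4 in the parental comparison. With the median over bins in place of the mean, OE over long gaps with Dam-lamin B1 was 0.308 at the 2-cell and 0.393 at the 8-cell stage, 0.727 in oocytes, 1.04 and 1.01 in oocytes labelled 20ng and 50ng, 0.548 in zygotes and 0.559 in zygotes with aphidicolin. It was 0.558 in paternal pronuclei, and in maternal pronuclei 0.435 without Kdm5b, 0.646 with wild-type and 0.436 with mutant Kdm5b. With Dam it was 1.28 in zygotes, 1.33 at the 2-cell and 1.73 at the 8-cell stage. For 8-cell Dam, the log2 of long over shorter gaps was 0.35 with gaps of at least 5 Mb and 0.55 with medians, and core over edge was 0.21 with the edge under 0.5 Mb and the core from 1.0 Mb. Requiring only part of a bin in a gap gave the same 3946 bins. The number of cells limits the tests on few pronuclei, with 6 in the smallest group.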

Other observations

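At equal reads, 24.9% ± 8.11 (SD, n = 47) of the bins in long gaps had an OE of 1 or more at the 2-cell stage with Dam-lamin B1, against 43.5% ± 3.17 of the bins in LADs. In zygotes the shares were 31.7% ± 4.98 and 46.1% ± 1.86 (n = 19), and in ES cells 24.9% ± 5.07 and 46.7% ± 3.22 (n = 10). In oocytes they were 32.8% ± 3.96 and 27.9% ± 2.88 (n = 56), so the order was turned around there. In paternal pronuclei with wild-type Kdm5b the shares were 47.4% ± 4.45 in long gaps and 48.0% ± 3.34 in LADs (n = 19), and with the mutant 38.1% ± 6.37 and 51.5% ± 2.06 (n = 6). These are descriptions with no test. In ES cells, the longest run of bins in a long gap with a mean OE of 1 or more was on chromosome 12 from 106.5 to 108.0 Mb, over Bcl11b, a zinc-finger factor of T cells and neurons, with a mean OE of 1.32. The next were on chromosome 4 from 64.9 to 65.8 Mb, over Pappa, Astn2 and Trim32 (1.39), and on chromosome 17 from 72.0 to 72.8 Mb, over the receptor kinase gene Alk (1.28). ES cells have no group with Dam alone, so these runs are not comparable with those of the other stages.

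The 14 cells whose labels contradict each other entered no comparison. The mean OE over long gaps was 0.742 in 1 cell of an 8-cell embryo that carries both constructs in its labels, and between 1.10 and 1.18 in 13 oocytes whose title and labels name different amounts (20ng and 50ng).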
